A study of Mus musculus with 8 samples.

Results

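The embryonic globins and genes of the primitive red cell were followed in the posterior part of Cdx2 null mutant mouse embryos. The set holds 8 genes chosen by name, Hbb-bh1, Hbb-y, Hba-x, Hba-a1, Alas2, Klf1, Nfe2 and Epor, out of 28305 gene names on the array. They are covered by 9 of 41174 non-control probes, 2 for Hbb-bh1 and 1 for each other gene. The study compared Cdx2 null mutants with wild type embryos, all of strain C57Bl6J/CBA, at 7/8 somites and at 4/5 somites. The groups were null at 7/8 somites, wild type at 7/8 somites, null at 4/5 somites and wild type at 4/5 somites, each 1 pool from 20 embryos. The tissue was the posterior piece of the embryo, cut between the youngest somite and the root of the allantois. The labels do not describe the mutant Cdx2 allele. On each of 4 arrays per stage the null pool was hybridized together with its wild type pool, with Cy3 on the null pool on 2 arrays and Cy5 on the other 2.

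The first red cells of the mouse arise in the blood islands of the yolk sac and enter the circulation once the heart beats, before the definitive cells of the fetal liver exist. Haemoglobin of these primitive cells pairs a beta-type chain from Hbb-bh1 or Hbb-y with an alpha-type chain from Hba-x, Hba-a1 or Hba-a2. Hbb-bh1 and Hba-x are known as early embryonic chains, Hbb-y as the embryonic chain that later exceeds Hbb-bh1 as the primitive cells mature, and Hba-a1 as an alpha chain used in embryo and adult. Alas2 makes the first enzyme of haem synthesis in red cells, Klf1 and Nfe2 encode erythroid transcription factors, and Epor encodes the receptor for erythropoietin.

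The probes that carried the globin values are 60 bases long and are shown because what each one matches decides which chain was read. Positions are those of the deposited scanner files on build mm9. The Hbb-bh1 probes lie at chr7:110990327-110990386 (probe 1) and chr7:110990307-110990366 (probe 2), both on the minus strand, and share 40 bases, marked in capitals, so they are overlapping readings of one stretch of the transcript and not independent of each other. The Hbb-y probe lies at chr7:111001412-111001471 on the minus strand, the Hba-x probe at chr11:32177668-32177727 on the plus strand and the Hba-a1 probe within chr11:32183775-32183956 on the plus strand. The 60 bases of the Hba-a1 probe span 182 bases of the genome and therefore cross an intron. That probe lists accessions of both Hba-a1 and Hba-a2, so the 2 genes cannot be told apart by it.
Hbb-bh1 probe 1: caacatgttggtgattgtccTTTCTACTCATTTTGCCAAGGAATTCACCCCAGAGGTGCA
Hbb-bh1 probe 2: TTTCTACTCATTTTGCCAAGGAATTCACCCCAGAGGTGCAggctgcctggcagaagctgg
Hbb-y: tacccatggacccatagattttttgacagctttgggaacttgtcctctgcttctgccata
Hba-x: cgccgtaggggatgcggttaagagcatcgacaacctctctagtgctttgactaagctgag
Hba-a1: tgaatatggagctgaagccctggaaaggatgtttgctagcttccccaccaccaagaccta

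The scanner's own test of a spot against its surroundings called 46.54% to 58.95% of probes well above background per channel, and no non-control spot was saturated. Log2 ratios correlated across probes at 0.856 to 0.918 between arrays of one stage and dye order and at 0.477 to 0.516 between arrays of one stage with dyes swapped (probes are not independent replicates). Cdx2 itself read -1.55 ± 0.05 at 7/8 somites and -1.23 ± 0.12 at 4/5 somites as the log2 ratio of null over wild type (SD of 4 arrays). It fell over both stages by 1.39 (SE 0.09, limma adjusted p = 1.65e-07). The labels do not say whether this probe falls inside the part of the gene that the mutation alters. All 8 posterior markers looked at, among them T, Tbx6 and Wnt3a, were well above background in every channel. Of these, 4 fell in the null pools: Hoxb9, Cyp26a1, Msgn1 and Cdx2, the last being the mutated gene itself. Of all 15489 measured genes, 3.66% fell. All 8 markers had a mean ratio below 0 at 4/5 somites, where the median of all measured genes was -0.00017. The list median was -0.22 at 7/8 somites and -0.72 at 4/5 somites. These markers were named after their values were seen. Their part in the globin ratios was not tested. The 4 arrays of a stage are technical repeats of the same pools, so a standard deviation here is technical. The p-values weigh a probe's spread between the 2 stages (1 residual degree of freedom) with that common to all probes (14.92 prior degrees). They draw mostly on the latter and do not measure variation between pools of one genotype and stage.

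Hbb-bh1 was the member that passed the test between genotypes, and it was lower in the null pools. At 7/8 somites the log2 level of probe 1, a channel value on the scale of the arrays, was 11.75, 11.97, 11.77 and 11.94 in the null pool and 12.11, 12.09, 12.10 and 12.01 in the wild type pool on arrays 1 to 4. The 4/5 somite values were 7.81, 7.98, 7.98 and 8.00 in the null pool, against 8.52, 8.45, 8.61 and 8.42 in the wild type pool. The null pool was lower on all 4 arrays of each stage. This was so for 19.6% of all measured probes at 7/8 somites and 23.1% at 4/5 somites. Null and wild type channels did not overlap at either stage, but the share of all probes without such overlap was not counted. The log2 ratio of null over wild type averaged -0.22 ± 0.15 at 7/8 somites and -0.56 ± 0.13 at 4/5 somites (SD of 4 arrays), 1.16-fold and 1.47-fold lower in the null pool. Over both stages Hbb-bh1 fell by 0.39 (SE 0.09, n = 2 stages, limma adjusted p = 0.0165), a 1.31-fold difference. In a bulk sample, fewer red cells and less globin RNA per cell cannot be told apart.

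Probe 2 of Hbb-bh1 was also lower in the null pool on 8 of 8 arrays, but did not pass the test. Its log2 level at 7/8 somites was 11.27, 11.47, 11.30 and 11.57 in the null pool and 11.64, 11.54, 11.60 and 11.59 in the wild type pool. The 4/5 somite values were 7.41, 7.54, 7.44 and 7.66 in the null pool and 7.79, 8.00, 7.84 and 7.91 in the wild type pool. Null and wild type channels overlapped at 7/8 somites and not at 4/5 somites, which was also not counted over all probes. The ratio averaged -0.19 ± 0.17 at 7/8 somites and -0.37 ± 0.09 at 4/5 somites, and over both stages -0.28 (SE 0.09, limma adjusted p = 0.0593). Without array 1 of 4/5 somites it passed (adjusted p = 0.0467).

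The size of the Hbb-bh1 ratio moved with dye order. With Cy3 on the null pool, probe 1 read -0.36 and -0.32 at 7/8 somites and -0.71 and -0.63 at 4/5 somites. With Cy5 on the null pool it read -0.12 and -0.06 at 7/8 somites and -0.47 and -0.42 at 4/5 somites. Both dye orders thus gave a lower null pool at both stages, with the larger difference under Cy3. The fall was 0.50 over both stages on the Cy3 arrays alone (limma adjusted p = 0.0356), and the mean on the Cy5 arrays alone was -0.27 (adjusted p = 0.153). Within slide 1 the ratio was -0.41 (adjusted p = 0.0130) and within slide 2 -0.36 (adjusted p = 0.00813). The call on probe 1 was lost in 10 of 20 other ways of treating the data, with a ratio from -0.50 to -0.27 and an adjusted p from 0.00752 to 0.203 over all 20. It was lost, among others, when array 1, 2 or 3 of 7/8 somites or array 2 or 4 of 4/5 somites was left out (adjusted p = 0.0539 to 0.0783).

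**Figure D1:**
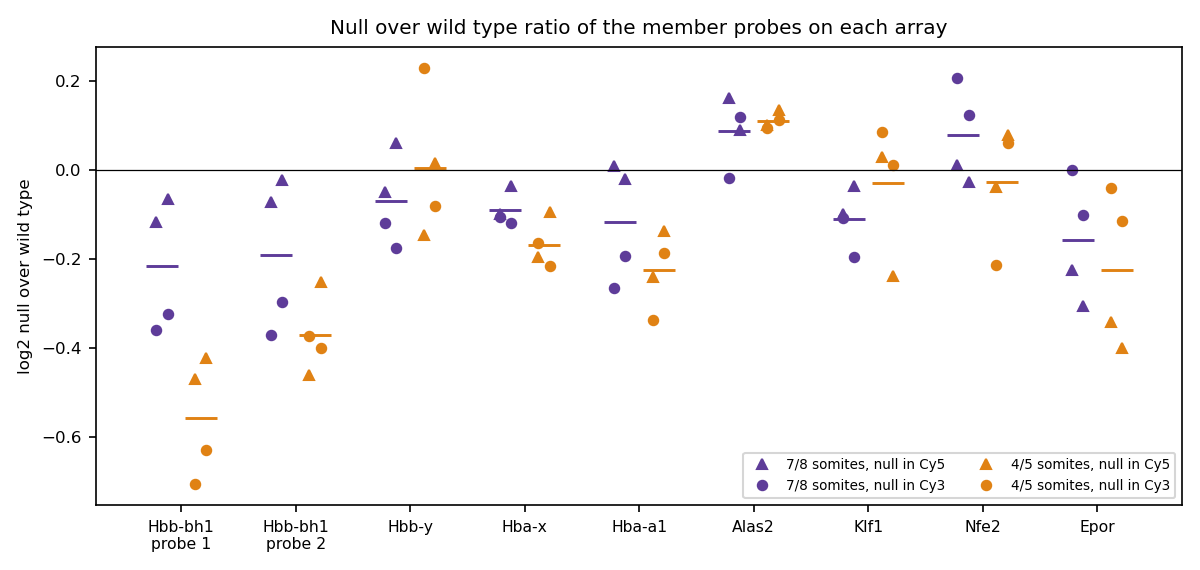
Log2 ratio of null over wild type for each member probe on each array, at 7/8 somites (purple, left) and 4/5 somites (orange, right). Triangles are arrays with Cy5 on the null pool, circles arrays with Cy3, and bars the mean of 4 arrays. Both Hbb-bh1 probes lie below 0 on every array, whereas Hbb-y lies on both sides of 0.

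The other globins did not pass the test between genotypes. Hba-x, the embryonic alpha-type chain, had ratios of -0.11, -0.10, -0.12 and -0.04 at 7/8 somites and of -0.16, -0.20, -0.22 and -0.09 at 4/5 somites. They lay below 0 on 8 of 8 arrays, with a mean over both stages of -0.13 (SE 0.08, limma adjusted p = 0.441). In the null pool at 4/5 somites, Hba-x was not well above background on any array, and in the wild type pool it was so on only 2 of 4 arrays. With the scanner's processed signals in place of the corrected ones the ratio over both stages was -0.52 (limma adjusted p = 0.0387). That is the mean of 2 stage ratios, and the ratio at 4/5 somites was -0.91. The processed signals differ from the others in both background subtraction and dye normalization.

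Hba-a1, which shares its probe with Hba-a2, gave -0.26, 0.01, -0.19 and -0.02 at 7/8 somites and -0.34, -0.24, -0.19 and -0.14 at 4/5 somites. The null pool was lower on 7 of 8 arrays, and the mean over both stages was -0.17 (SE 0.09, limma adjusted p = 0.274). Hbb-y gave -0.12, -0.05, -0.17 and 0.06 at 7/8 somites and 0.23, -0.15, -0.08 and 0.02 at 4/5 somites. Its mean was -0.03 (SE 0.08, adjusted p = 0.901), with null and wild type channels overlapping at both stages. Under median centring of the arrays the 7/8 somite means of Hba-x, Hba-a1 and Hbb-y turned to 0.05, 0.01 and 0.03. The test of the genotype difference thus gave 1 lower probe, Hbb-bh1 probe 1, among 8 member probes measured, where 8.42% of all 21907 probes measured passed it, 4.94% as higher and 3.48% as lower. The ninth, Nfe2, was too dim to be tested.

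The members that make no globin showed small genotype ratios. Alas2 had log2 levels of 7.19, 7.45, 7.39 and 7.15 in the null pool and 7.20, 7.28, 7.27 and 7.06 in the wild type pool at 7/8 somites. The 4/5 somite values were 7.33, 7.43, 7.34 and 7.36 in the null pool and 7.24, 7.33, 7.23 and 7.23 in the wild type pool. Its ratio was above 0 on 7 of 8 arrays and averaged 0.10 over both stages (SE 0.08, limma adjusted p = 0.583). Epor read 8.09, 7.78, 7.87 and 7.82 in the null pool and 8.09, 8.01, 7.97 and 8.13 in the wild type pool at 7/8 somites. At 4/5 somites it read 7.87, 7.91, 8.07 and 7.64 in the null pool and 7.91, 8.25, 8.18 and 8.04 in the wild type pool. The null pool had the lower Epor value on 7 of 8 arrays, and the channels of null and wild type overlapped at both stages. The Epor ratio averaged -0.16 ± 0.13 at 7/8 somites and -0.22 ± 0.17 at 4/5 somites, and -0.19 over both (SE 0.08, limma adjusted p = 0.207). It was also split by dye, with -0.06 on the arrays with Cy3 on the null pool and -0.32 on those with Cy5.

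Klf1 and Nfe2, the erythroid transcription factors, were at or below the limit of measurement. At 4/5 somites Klf1 was well above background on none of 4 arrays in either pool, and at 7/8 somites it was so on 2 of 4 arrays in the null pool and on 3 of 4 in the wild type pool. Its log2 levels lay between 6.34 and 6.53 in the null pool and 6.49 and 6.63 in the wild type pool at 7/8 somites, and between 6.33 and 6.41 in the null pool and 6.31 and 6.59 in the wild type pool at 4/5 somites. The Klf1 ratio was -0.11 ± 0.07 at 7/8 somites and -0.03 ± 0.14 at 4/5 somites, with a mean of -0.07 (SE 0.08, limma adjusted p = 0.745). Nfe2 was not well above background in any channel, and its log2 levels lay between 6.32 and 6.60 in the null pool and 6.31 and 6.45 in the wild type pool at 7/8 somites, and between 6.15 and 6.35 in the null pool and 6.18 and 6.36 in the wild type pool at 4/5 somites. A difference in either gene was not detectable at this signal.

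**Figure D2:**
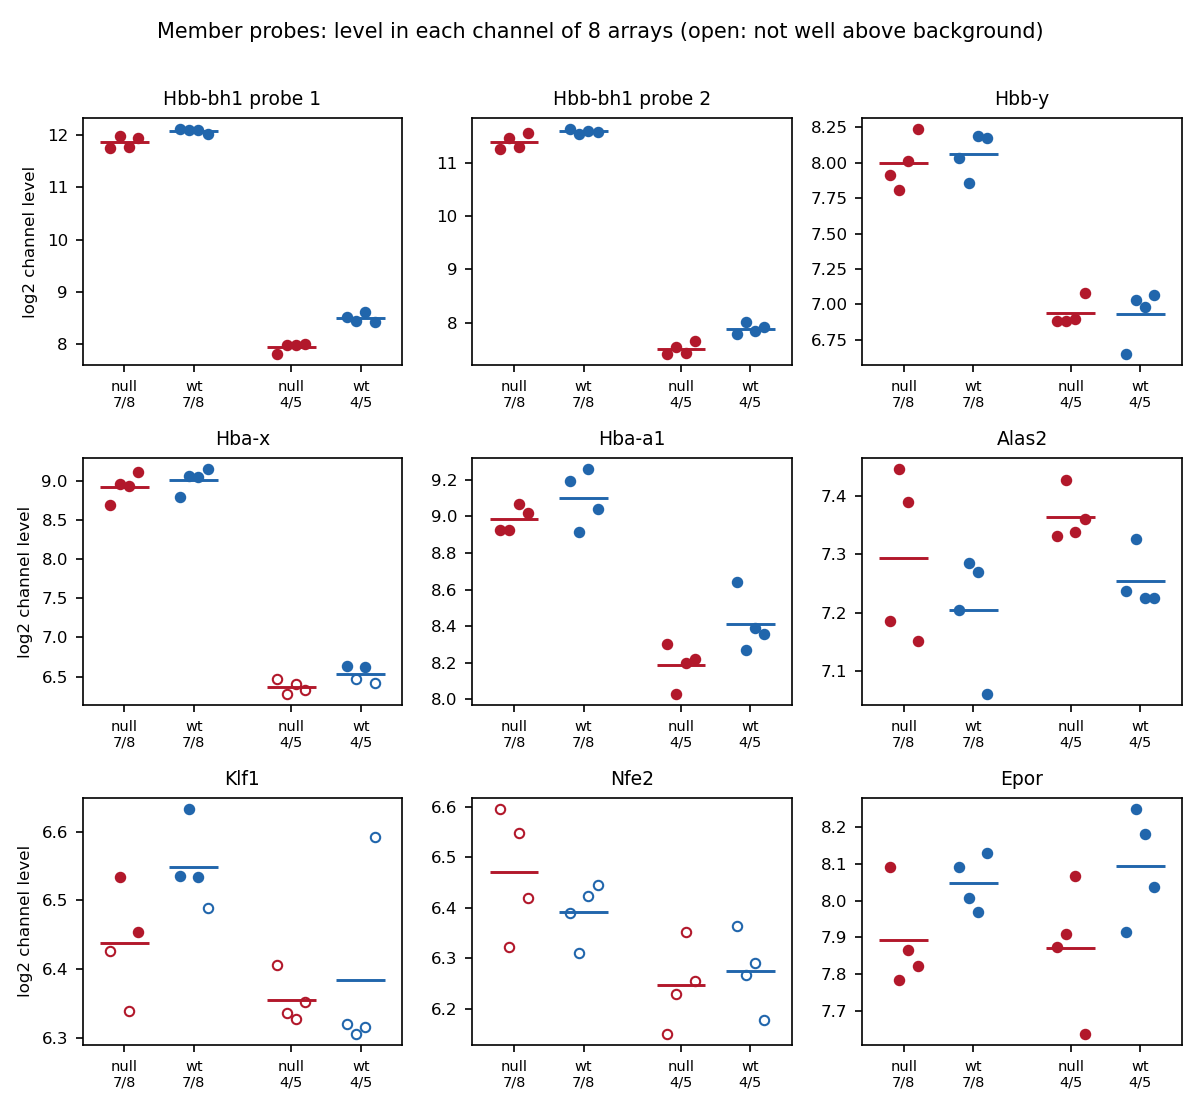
Log2 channel level of the 9 member probes on each array in null pools (red) and wild type pools (blue), with 7/8 somites left of 4/5 somites. Open points were not well above background and bars are means of 4 arrays. The 2 Hbb-bh1 probes and Hba-x are far higher at 7/8 somites in both genotypes, whereas Alas2 and Epor overlap between stages.

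Between stages the embryonic globins differed far more than between genotypes. Hbb-bh1 probe 1 averaged 11.86 ± 0.11 at 7/8 somites and 7.94 ± 0.09 at 4/5 somites in the null pools (log2 level, SD of 4 arrays), 15.1-fold higher at the later stage. In the wild type pools it averaged 12.08 ± 0.05 at 7/8 somites and 8.50 ± 0.08 at 4/5 somites, 11.9-fold higher. Probe 2 was 14.8-fold higher at 7/8 somites in the null pools and 13.0-fold higher in the wild type pools. By the size of their stage change, the 2 probes ranked 1 and 2 among all 21907 measured probes in the null pools and 2 and 1 in the wild type pools, though on the scanner's processed signals Hba-x exceeded both. Each slide held both stages. Compared within a slide and dye order, the log2 change of probe 1 was 3.94, 3.99, 3.79 and 3.94 in the null pools and 3.59, 3.64, 3.49 and 3.59 in the wild type pools, so each of the 4 pairs of arrays gave a change of similar size. Stage changes were described by size, with 1 pool per genotype and stage, and were not tested.

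Hba-x was also higher at 7/8 somites in both genotypes. Its log2 level at 7/8 somites was 8.69, 8.96, 8.93 and 9.11 in the null pool, and at 4/5 somites it was 6.47, 6.28, 6.40 and 6.32. In the wild type pools it was 8.79, 9.06, 9.05 and 9.15 at 7/8 somites, against 6.63, 6.47, 6.62 and 6.42 at 4/5 somites. No array of one stage overlapped one of the other, with a change of 2.55 in the null pools and 2.48 in the wild type pools. Since the null pool at 4/5 somites was not well above background, its change is given as at least 5.68-fold. The wild type pool at 4/5 somites was so on only 2 of 4 arrays, which leaves its change uncertain too. The scanner's processed signals, which carry no offset, gave a log2 change of 5.15 in the null pools and 4.36 in the wild type pools, and without background correction it was 1.92 and 1.90.

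The processed signals show how near the detection limit Hba-x was at the earlier stage. They ran between 467 and 570 units in the null pool at 7/8 somites and between 12.4 and 18.5 units at 4/5 somites. In the wild type pool they ran between 513 and 622 units at 7/8 somites and between 23.9 and 37.0 units at 4/5 somites. Hbb-bh1 probe 1 had 4105 to 4617 units in the null pool at 7/8 somites, against 162 to 266 units at 4/5 somites. In the wild type pool it had 4476 to 5951 units at 7/8 somites, against 298 to 404 units at 4/5 somites. Hbb-bh1 was thus measured well inside the range of the scanner at both stages. On these signals the log2 stage change of probe 1 was 4.49 in the null pools and 3.98 in the wild type pools.

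**Figure D3:**
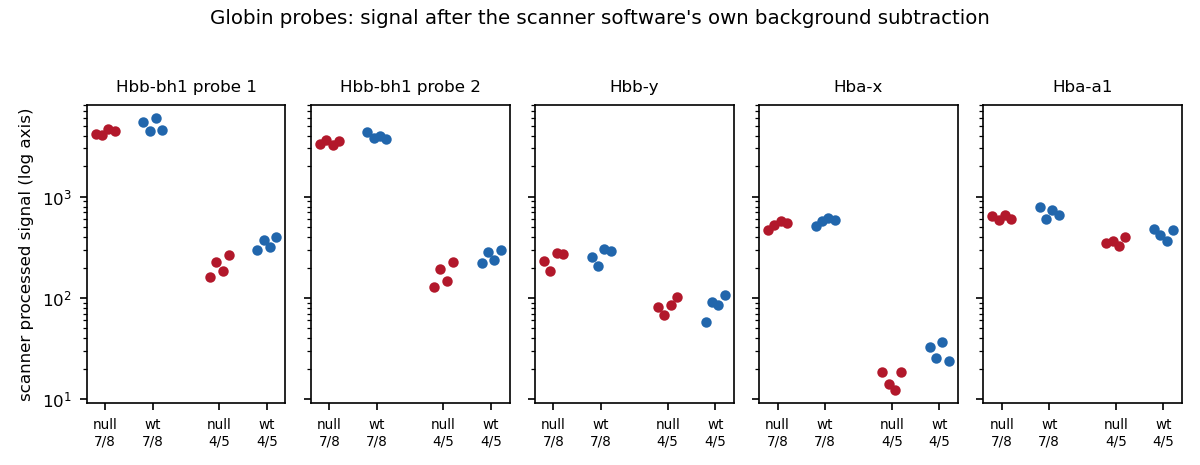
Scanner processed signal (units on a log axis) of the 5 globin probes on each array in null pools (red) and wild type pools (blue), with 7/8 somites left of 4/5 somites. Hba-x lies between 12.4 and 37.0 units at 4/5 somites and between 467 and 622 units at 7/8 somites.

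Hbb-y, the other embryonic beta-type chain, was also higher at 7/8 somites. In the null pools its log2 level was 7.92, 7.81, 8.01 and 8.24 at 7/8 somites and 6.88, 6.88, 6.90 and 7.08 at 4/5 somites. In the wild type pools it was 8.03, 7.86, 8.19 and 8.18 at 7/8 somites and 6.65, 7.03, 6.98 and 7.06 at 4/5 somites. The stages did not overlap in either genotype, and the change was 2.08-fold in the null pools and 2.19-fold in the wild type pools. This is close to the 2-fold limit used for stage changes: the log2 change was 0.77 in the null pools and 0.83 in the wild type pools without background correction, and 1.60 and 1.74 on processed signals. Without array 4 of 7/8 somites the change in the null pools was 0.98 and no longer reached 2-fold.

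Hba-a1 had the smallest stage change of the 4 globins of the set. In the null pools its log2 level was 8.93, 8.92, 9.07 and 9.02 at 7/8 somites and 8.31, 8.03, 8.20 and 8.22 at 4/5 somites. In the wild type pools it was 9.19, 8.92, 9.26 and 9.04 at 7/8 somites and 8.64, 8.27, 8.39 and 8.36 at 4/5 somites. The stages did not overlap, as was so with a higher 7/8 somite level for 11.1% of all measured probes in the null pools and 8.4% in the wild type pools. The difference of 1.74-fold in the null pools and 1.61-fold in the wild type pools stayed under 2-fold. Hba-x was not measured on both sides, so its order against Hbb-bh1 cannot be told. Its bound of at least 5.68-fold in the null pools lay above the 2.08-fold of Hbb-y and the 1.74-fold of Hba-a1. In the wild type pools no such bound was set. Among the other 3, the log2 stage changes ran from Hbb-bh1 through Hbb-y to Hba-a1 in both genotypes.

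Alas2 and Epor differed little between stages, and Klf1 was too dim at 4/5 somites to tell. The log2 change of Alas2 was -0.07 in the null pools and -0.05 in the wild type pools, that of Epor 0.02 and -0.05, and that of Klf1 0.08 and 0.16, each with overlapping stages. Nfe2, not well above background at either stage, has no order. On the scanner's processed signals the log2 change of Klf1 was 0.78 in the null pools and 0.88 in the wild type pools, from values at 4/5 somites that were not well above background on any array. Of the 8 measured member probes, 4 were at least 2-fold higher at 7/8 somites without overlap in the null pools, where 0.233% of all probes passed this size rule in either direction and 0.114% upward. The same 4 passed in the wild type pools, where 0.192% of all probes passed and 0.073% upward. They are the 2 probes of Hbb-bh1, which share 40 bases, and those of Hba-x and Hbb-y. Hba-x was kept only through its 7/8 somite channels, where it was high, so the filter favoured it in this count. The count is a description and not a test.

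**Figure D4:**
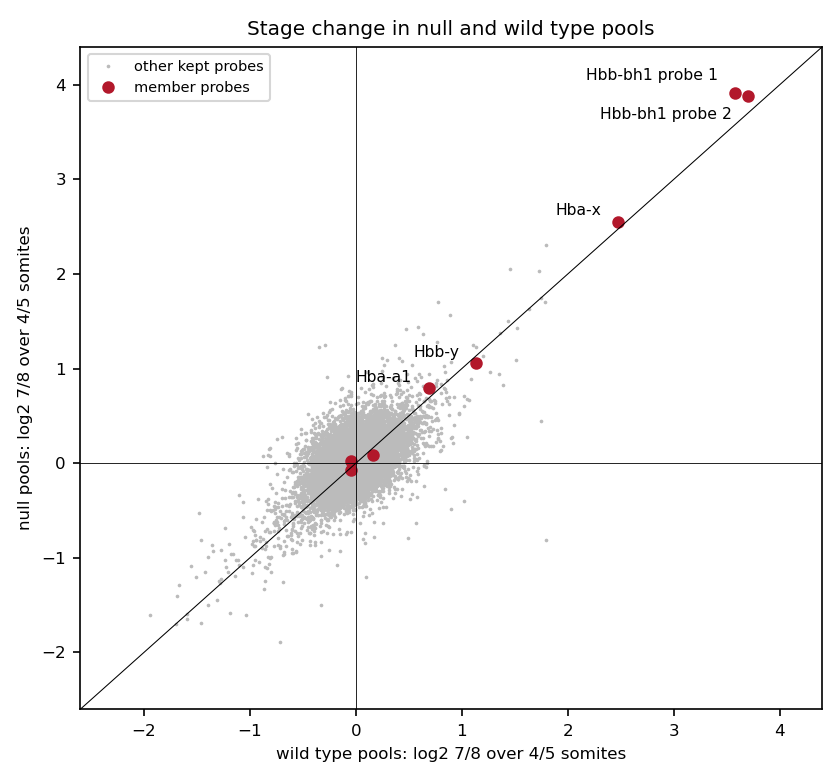
Log2 stage change (7/8 minus 4/5 somites) in the null pools against that in the wild type pools for all measured probes (grey), with member probes in red. The 2 Hbb-bh1 probes and Hba-x stand at the far end in both genotypes, and Alas2, Epor and Klf1, the last of them not well above background at 4/5 somites, lie near 0.

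The genotype ratio of Hbb-bh1 was nearer to 0 at 7/8 somites. For probe 1 the mean ratio was higher at 7/8 than at 4/5 somites by 0.34 on the log2 scale, and its arrays did not overlap between stages, which was so for 18.4% of all probes in either direction and 10.3% in this one. The difference for probe 2 was 0.18, with overlapping arrays. For Hba-x it was 0.08, for Hba-a1 0.11, for Epor 0.07, for Alas2 -0.02, for Hbb-y -0.07 and for Klf1 -0.08, all with overlapping arrays. No member reached the 2-fold size rule for a stage difference, which 0.0639% of probes passed. Within a stage, no member reached a 2-fold genotype ratio with the same sign on all 4 arrays, at 7/8 somites (0.415% of probes) or at 4/5 somites (0.292% of probes).

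A stretch of 250 bases before the annotated start was read for the 6 members present in the RefSeq promoter table (assembly GRCm38.p6), and those of 3 globins are printed since their transcripts were all higher at 7/8 somites. The sequence of Hbb-y is chr7:103853208-103853457 on the minus strand, that of Hba-x chr11:32276350-32276599 and that of Hba-a1 chr11:32283422-32283671, both on the plus strand. Capitals mark 4 motifs on either strand: GATAA of the GATA factors, CACCC of the CACCC box, CCAAT of the CCAAT box and TATAA of the TATA box.
Hbb-y promoter: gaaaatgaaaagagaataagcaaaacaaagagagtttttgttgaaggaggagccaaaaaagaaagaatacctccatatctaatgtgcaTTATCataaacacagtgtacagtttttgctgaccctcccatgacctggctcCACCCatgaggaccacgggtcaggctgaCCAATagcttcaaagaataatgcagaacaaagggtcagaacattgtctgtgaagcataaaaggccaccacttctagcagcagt
Hba-x promoter: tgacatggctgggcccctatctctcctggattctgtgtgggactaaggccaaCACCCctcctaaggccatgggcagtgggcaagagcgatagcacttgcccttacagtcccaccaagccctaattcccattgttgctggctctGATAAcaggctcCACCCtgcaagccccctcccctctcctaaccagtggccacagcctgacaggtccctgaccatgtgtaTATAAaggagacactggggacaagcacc
Hba-a1 promoter: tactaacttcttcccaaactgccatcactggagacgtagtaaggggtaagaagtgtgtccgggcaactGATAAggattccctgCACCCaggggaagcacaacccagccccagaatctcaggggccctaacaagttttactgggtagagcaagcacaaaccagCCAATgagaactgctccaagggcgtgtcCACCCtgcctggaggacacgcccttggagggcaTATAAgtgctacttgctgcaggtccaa
The Hbb-y window held GATAA on the opposite strand 162 bases before the start, CACCC at 111 and CCAAT at 83. The Hba-x window held GATAA at 107, CACCC at 198 and at 95 and TATAA at 28. The Hba-a1 window held GATAA at 182, CACCC at 167 and at 60, CCAAT at 88 and TATAA at 27. GATAA and CACCC stood together in all 6 windows, those of Alas2, Klf1 and Epor included, and in 10.1% of 32851 windows of the same length. Singly, GATAA was found in 22.6% of all windows, CACCC in 52%, CCAAT in 33.8% and TATAA in 22.8%, and a match describes letters only.

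The genes whose pattern was most like the globins were found by the root mean square difference from the globin median over 4 log2 values. The median profile was -0.10 and -0.20 for the genotype ratio at 7/8 and 4/5 somites and a stage change of 1.81 in both genotypes. The nearest were Nop2 (0.155), which encodes a methyltransferase of ribosomal RNA, Gtf2e2 (0.156), a subunit of a general transcription factor, Tspan31 (0.229), Pgp (0.243), Fmc1 (0.266), Cdkn2aipnl (0.311), Rpl4 (0.359), a ribosomal protein gene, and Anapc16 (0.460). Nop2 differed between stages by 2.03 in the null pools and 1.72 in the wild type pools. At 4/5 somites Nop2, Tspan31, Cdkn2aipnl, Rpl4 and Anapc16 were well above background on only 3 of 4 arrays in both pools. So was Pgp in the wild type pool. At 7/8 somites these genes were so on 4 of 4 arrays, and whether 1 dim array carried their stage change was not tested. The globins lay farther from their own median, at 0.503 for Hba-x, 0.513 for Hbb-y, 0.754 for Hba-a1 and 1.39 for Hbb-bh1. None of the 8 nearest genes is on the lists of red cell genes.

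Lists of red cell genes are described by the brightest probe of each gene. The median log2 ratio of all 15489 measured genes was -0.01, and 9.27% of them passed the test, 5.61% as higher and 3.66% as lower. An unadjusted limma p under 0.05 was reached by 21.3% of them. Of 5 other globins measured none passed the limma test, with 2 at an unadjusted p under 0.05. Hba-a2, with a probe of its own name, read -0.16 and differed between stages by 0.73 in the null pools and 0.60 in the wild type pools, close to Hba-a1. The probe filed as Hbb-b1, an adult beta chain named Hbb-bt in RefSeq, read -0.24 (limma adjusted p = 0.101) and had a negative log2 stage change, of -0.30 in the null pools and -0.42 in the wild type pools. Near-identical adult beta chain genes could share this probe. Cytoglobin (Cygb) read 0.19, neuroglobin (Ngb) -0.04 and Hbq1b -0.03.

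None of the 14 genes of haem synthesis and its mitochondrial import passed the limma test (4 at an unadjusted p under 0.05), with a list median of -0.04. The largest ratios were those of Tmem14c, a porphyrinogen importer (-0.28, limma adjusted p = 0.058), Fech, the enzyme that puts iron into haem (0.26, adjusted p = 0.0749), the decarboxylase gene Urod (-0.22) and the glycine carrier gene Slc25a38 (-0.22). Stage changes in this list were small, with medians of -0.09 in the null pools and -0.05 in the wild type pools. None of 9 measured genes of the red cell membrane passed (1 at an unadjusted p under 0.05, median -0.02), with Dmtn, a skeleton protein, at -0.30 (adjusted p = 0.060), Epb41 at 0.16, Kel at 0.13 and Slc4a1, the anion exchanger, at 0.03. Sptb, Rhag and Epb42 of that list were too dim to be measured.

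Of 16 measured erythroid transcription factors and cofactors, 2 rose and 1 fell, and the list median was -0.02. Klf2, a Kruppel-like factor that acts with Klf1 on embryonic globins in the mouse and is also strong in endothelium, fell by 0.70 (SE 0.09, limma adjusted p = 8.94e-05), with -0.82 at 7/8 and -0.58 at 4/5 somites. Klf3 rose by 0.41 (limma adjusted p = 0.0293) and Zfpm1, the GATA cofactor FOG1, by 0.30 (adjusted p = 0.0367). The arrays of Klf3 disagreed, with 0.69 ± 0.40 at 7/8 and 0.12 ± 0.33 at 4/5 somites (SD of 4 arrays). Its ratio was above 0 on only 6 of 8 arrays. Tal1, needed for all blood formation, read -0.87 at 7/8 and 0.02 at 4/5 somites, with a mean of -0.43 that did not pass (adjusted p = 0.0724). Its relative Lyl1 read -0.68 at 7/8 and 0.02 at 4/5 somites (mean -0.33, adjusted p = 0.119). Lyl1 had the largest stage change of the list, 0.91 in the wild type pools and 0.22 in the null pools. Gata1, Gfi1b and Ikzf1 were too dim to be measured.

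Of 8 measured red cell enzymes, 1 rose, Car2, a carbonic anhydrase (0.40, SE 0.08, limma adjusted p = 0.00622), while Bpgm read -0.22, Cat 0.19 and Blvrb -0.10. Of 10 genes of iron uptake and storage, 2 rose: the iron exporter gene Slc40a1 (0.43, adjusted p = 0.00572) and the ferritin gene Fth1 (0.33, adjusted p = 0.0204). Tfrc, which takes up transferrin, read -0.09. Around Epor, 3 of 12 measured genes of erythropoietin signalling passed, 2 of them up. Stat5b rose by 0.61 (adjusted p = 0.000176) and Socs3 by 0.45 (adjusted p = 0.0041), and Socs2 fell by 0.35 (adjusted p = 0.0458). The kinase gene Jak2 read -0.19, the receptor gene Kit read -0.25 and Epo was too dim to be measured. These genes are also used outside the red cell lineage.

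**Figure D5:**
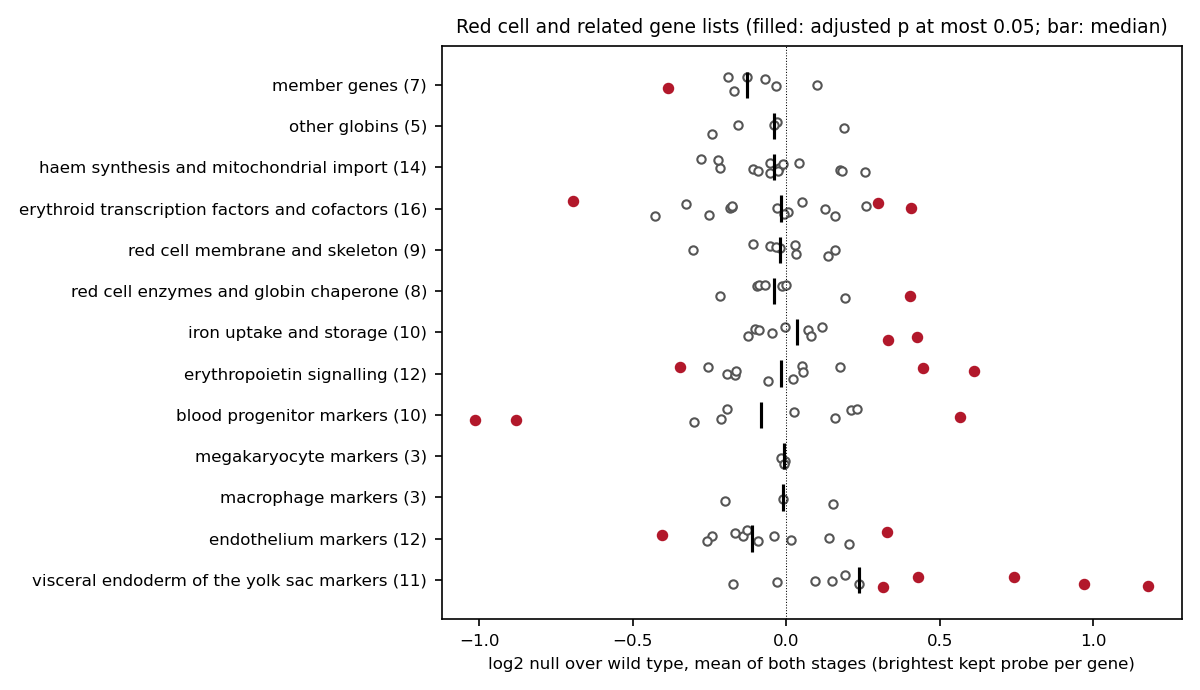
Log2 ratio of null over wild type over both stages for each measured gene of the red cell lists and of the lists of other cell types. Filled points passed the limma test at an adjusted p of at most 0.05, and bars are list medians. The haem and membrane lists scatter about 0, while the marker list of yolk sac visceral endoderm lies to the higher side. The list median was -0.13 for the member genes and -0.04 for the other globins, against -0.01 for all measured genes.

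Markers of neighbouring cell types moved between genotypes too, and their part in the globin values was not tested. Of 10 measured blood progenitor markers, 2 fell and 1 rose. Etv2, which directs blood and endothelial fate, fell by 1.01 (limma adjusted p = 2.95e-05), with -1.33 at 7/8 and -0.69 at 4/5 somites. Kdr, a growth factor receptor on the same precursors, fell by 0.88 (adjusted p = 0.000139), with -1.22 at 7/8 and -0.55 at 4/5 somites, and Meis1 rose by 0.57 (adjusted p = 0.000356). The summed level of this list, on the linear array scale, was 3383 to 3840 in the null pool and 4788 to 5710 in the wild type pool at 7/8 somites, and 3328 to 3380 in the null pool and 3581 to 3833 in the wild type pool at 4/5 somites. Bright genes weigh most in such a sum. The median ratio of the list was -0.06 at 7/8 and 0.03 at 4/5 somites, where only 4 of the 10 genes lay below 0. Ptprc and Spi1 were too dim to be measured.

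Of 12 measured endothelial markers, Egfl7 fell by 0.40 (limma adjusted p = 0.0128) and Flt1 rose by 0.33 (adjusted p = 0.0243), and Pecam1 was too dim to be measured. The list's summed level was 4928 to 5701 in the null pool and 6294 to 7034 in the wild type pool at 7/8 somites, and 4542 to 4955 in the null pool and 4808 to 4946 in the wild type pool at 4/5 somites. The median ratio of the list was -0.19 at 7/8 and -0.01 at 4/5 somites. Its median stage change was 0.14 in the null pools and 0.48 in the wild type pools. Emcn changed by 0.96 in the null pools and 1.26 in the wild type pools, and passed the 2-fold size rule only in the latter. Of 11 markers of yolk sac visceral endoderm, the layer that faces the blood islands, 5 rose and none fell, among them Cubn (1.18, adjusted p = 4.17e-07) and Amn (0.97, adjusted p = 3.65e-06), the 2 parts of the cubilin receptor. Afp, the alpha-fetoprotein gene of that layer, read -0.82 at 7/8 and 0.48 at 4/5 somites, and its ratio passed the 2-fold size rule for a stage difference. Its log2 stage change was -1.20 in the null pools and 0.10 in the wild type pools. The sum of the list was 22617 to 25341 in the null pool and 18658 to 19644 in the wild type pool at 7/8 somites. At 4/5 somites it was 42041 to 44064 in the null pool and 29420 to 31075 in the wild type pool. This list was thus lower at 7/8 somites in both genotypes, with a median stage change of -0.71 in the null pools and -0.69 in the wild type pools, while the embryonic globins were higher. Megakaryocyte and macrophage markers had 3 of 11 genes measured each, with none passing the limma test (0 and 1 at an unadjusted p under 0.05). Pf4, Itga2b, Csf1r and Adgre1, which define those cells, were too dim to be measured. The summed level of the megakaryocyte list was 372 to 445 in the null pool and 394 to 459 in the wild type pool at 7/8 somites, and 393 to 457 in the null pool and 364 to 449 in the wild type pool at 4/5 somites, so the genotypes overlapped at both stages.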

How the data were processed

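Agilent arrays with 2 colours compared 1 null pool with 1 wild type pool per stage. Per the labels' protocols, tissue was kept in RNAlater, RNA was taken with a RiboPure kit and 300 ng was amplified linearly. Spot and background brightness in the deposited scanner files are intensity values with no normalization, per the file headers. The processed signals, also intensity values in the deposited files, were background-subtracted and dye-normalized by Agilent Feature Extraction (9.5.3 per the submitters' processing notes, 10.5.1.1 per the file headers). The series matrix, also deposited, gives log10 ratios that equal the scanner's log10 ratio, turned by dye to null over wild type, at 45018 of 45018 spots on each array (tolerance 1e-05).

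Genotypes of channels were taken from the labels. The 159 non-control spots with an uneven local background received their array's median background. Mean signals were corrected with normexp (offset 50) and loess in limma 3.58.1 (R 4.3.3, with the data.table package, version 1.17.8), channel levels also with Aquantile, all on the log2 scale, whereas the deposited intensity values are linear. The 1184 spots marked as outliers (0.3412%) were left out. Of 41174 probes, 21907 were kept because 1 genotype's channel was well above background on at least 3 of 4 arrays of a stage. RefSeq symbols matched 16964 of them, and other probes keep the name in the files. Bounds ("at least") replace a dim probe's value, per array, by the lowest signal that any measurable probe gave. The test between genotypes was limma's moderated test on 2 stage means per probe (1 residual and 14.92 prior degrees of freedom, two-sided), with Benjamini-Hochberg adjustment over all kept probes (each list gene keeps that p) at 0.05. "Rose" and "fell" mark what passed it. With 1 pool per genotype and stage, other differences were described by size: 2-fold, with one sign on 4 arrays or no overlap. The method was tested on simulated data.

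Members and gene lists were chosen with earlier results of these data known. Named genes are all members, Cdx2, for each list up to 4 genes of largest mean ratio plus up to 2 of largest stage change, and the 8 genes nearest to the globin median. Zfpm1, Slc4a1, Hbq1b, Jak2, T, Tbx6, Wnt3a, Hoxb9, Cyp26a1, Msgn1 and genes too dim to be measured were named outside this rule, after their values were seen.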

Additional observations from a re-analysis of the deposited data

Results flagged for a closer look

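In 4 of 54 groups of 4 arrays, 1 array stood far from the other 3, with a gap of more than 0.829 of the group's range. Chance alone flags about 1 in 20 such groups. The log2 level of Hbb-bh1 probe 1 in the null pool at 4/5 somites was 7.81 on 1 array against 7.98, 7.98 and 8.00 on the others (gap 0.895 of the range). Hbb-y in the null pool at 4/5 somites was 7.08 on 1 array against 6.88, 6.88 and 6.90 (0.905). Alas2 in the wild type pool at 4/5 somites was 7.33 on 1 array against 7.23, 7.23 and 7.24 (0.877). Klf1 in the wild type pool at 4/5 somites was 6.59 on 1 array against 6.31, 6.32 and 6.32 (0.95), all of them not well above background.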

How the results depend on the processing

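The pools were not replicated, dyes shifted ratios, and signals near background limited Hba-x, Klf1 and Nfe2. Among all probes, 1845 passed the genotype test. The count was 345 without background correction, 765 with median centring (599 higher and 166 lower, 78.3% higher against 58.6%), 812 with uneven backgrounds kept, 664 with no filter on dim probes, and 942 to 2168 when 1 array was left out. Arrays share a replicate number only through their slide. Slide deviations of the 2 stages correlated across probes at r = 0.00383, so the numbers did not pair the samples. With slide as a replicate block 3110 probes passed. Member probes that passed (1) numbered 0 without background correction, with median centring, with uneven backgrounds kept, with no filter or on Cy5 arrays alone, 2 on processed signals or slide 1, 3 with the replicate block, and 0 to 2 when 1 array was left out. Hbb-bh1 probe 1 then gave limma adjusted p-values of 0.137, 0.203, 0.0858, 0.140 and 0.153 in the first 5 cases, and Hbb-bh1 probe 2 passed at 0.0345 and Epor at 0.0433 with the block, which counts 4 dye swap pairs of only 2 pool pairs, so its p-values are too small.

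By size, 91 probes differed 2-fold between genotypes at 7/8 somites (60 without background correction, 355 on processed signals, 87 to 94 without 1 array) and 64 at 4/5 somites (33, 328 and 57 to 70, and 31 with uneven backgrounds kept). Between stages 51 differed in the null pools (239 on processed signals, 242 over the 75th percentile, 88 on Cy5 arrays, 85 on slide 2, 51 to 60 without 1 array) and 42 in the wild type pools (225, 211, 72, 74 and 37 to 49, and 74 on the arrays with Cy3 on the null pool). The genotype ratio differed between stages for 14 (9 without background correction, 136 on processed signals, 8 by brightest probe, 32 on Cy3 arrays, 14 to 20 without 1 array). Member probes higher at 7/8 somites numbered 3 or 4 in each genotype under every alternative run. Without normalization between arrays the median stage change of all probes was 0.113 in the null pools and 0.102 in the wild type pools, and the log2 change of Hbb-bh1 probe 1 was 4.04 and 3.70.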

Other observations

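The adult beta chain gene that RefSeq names Hbb-bt was read by 4 probes. Their log2 ratios of null over wild type ran between -0.24 and -0.08 over both stages, with no limma adjusted p under 0.101. Their log2 stage changes (7/8 minus 4/5 somites) ran between -0.33 and -0.20 in the null pools and between -0.55 and -0.27 in the wild type pools, below 0 on all 4 probes, whereas those of Hbb-bh1 and Hbb-y in the same gene cluster were above 0 in both genotypes. These probes were looked at after their values were seen.

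The 2 probes of Bpgm, which encodes the enzyme that makes 2,3-bisphosphoglycerate in red cells, disagreed. The brighter one had a log2 stage change of -1.22 in the null pools and -1.27 in the wild type pools, with overlapping arrays, and a ratio of null over wild type of -0.22. The other had stage changes of 0.15 and 0.22 and a ratio of 0.18.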
